A study of Homo sapiens with 4 samples.

Results

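The ETS factors of blood cells were examined in OCI-AML3 cells in which the mutant allele of NPM1 had been targeted by CRISPR-Cas9. The set holds 10 genes, namely SPI1, SPIB, ERG, FLI1, ETS1, ETS2, ETV6, ELF1, ELF4 and GABPA, chosen by name as ETS genes with known roles in hematopoiesis and matched by Ensembl identifier, out of 58037 genes in the count table. Earlier results of these data were known when the set was chosen. OCI-AML3 is an established human AML cell line with a heterozygous NPM1 mutation, which moves the NPM1 protein to the cytoplasm, and with DNMT3A and NRAS mutations that all groups here share. RNA was sequenced 3 days (72 hours) after transfection with the guide sgNPM1A, directed at mutant NPM1, or with the control guide sgNeg, which the study calls sgRNA Ctrl. There were 2 libraries per guide and 4 in all, which the study calls biological replicates, and the cells were transfected populations of a single line. Nothing states whether they came from separate transfections, so the p-values measure the spread between these libraries.

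ETS factors share a DNA-binding domain, the ETS domain, that recognises a GGAA core. Among those used in blood, SPI1 encodes PU.1, which drives the monocyte, granulocyte and B cell programs with interferon regulatory factors, C/EBP and AP-1 proteins as partners, while ERG and FLI1 act in stem cells and megakaryocytes together with RUNX1, GATA2, TAL1, LYL1 and LMO2. Many family members can bind the same sites, so the levels of the factors relative to each other are of interest as well as each level alone.

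Total counts lay between 25069484 and 28276391 per library, so that 3 counts, taken as the smallest count told from 0, equal 0.108 to 0.118 CPM (counts relative to the TMM-scaled library total), which covers counting error only. Of all genes, 15718 passed the filter on low counts and were tested with edgeR's quasi-likelihood test. Called genes are those with an adjusted p (Benjamini-Hochberg) under 0.05 whose log2 fold change is also 0.32 or more in size, the fold threshold of the study's methods. NPM1 itself had 1319 and 1385 CPM with sgNeg and 1189 and 1132 CPM with sgNPM1A. The groups were apart, but the change of -0.22 on the log2 scale (adjusted p = 0.0360, edgeR) missed the fold threshold. Gene counts sum both alleles and carry no information on the edited sequence. Markers of myeloid cells, the lineage of the line, were present: all 7 of the list (CD33, ANPEP, MPO, LYZ, CSF3R, CEBPA and SPI1) passed the filter, and 5 of them were called higher, where the share of all tested genes was 10.5%. The summed level of the 7 rose from 1247 to 1251 CPM with sgNeg to 4038 to 4754 CPM with sgNPM1A. Most of this rise was LYZ: without it the other 6, SPI1 among them, summed to 980 and 1032 CPM with sgNeg and 1396 and 1386 CPM with sgNPM1A. CD33 and CEBPA, with log2 fold changes of 0.06 and 0.04, were not called. Among 4 markers each, the summed level was at most 2.56 CPM for B cells, 0.0386 CPM for T cells, 1.19 CPM for erythroid cells and 4.60 CPM for megakaryocytes, and MS4A1, HBB, CD3D, CD3E and CD2 were at 0 in every library. Of these 16 markers, 1 of B cells, 0 of T cells, 1 of erythroid cells and 2 of megakaryocytes passed the filter, and the rest could not be called. Among those tested only the erythroid factor KLF1 was called, with 14 and 12 counts with sgNeg and 29 counts in each sgNPM1A library. The part of KLF1 in the results below was not tested.

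All 10 ETS genes passed the filter, and 4 of the 10 were called, against 20.8% of all tested genes. SPI1 was the only member called higher, where the share of all tested genes was 10.5%, and ETS2, ERG and ELF1 were called lower, where it was 10.3%. FLI1, ETS1, SPIB, ETV6, ELF4 and GABPA were not called. The median log2 fold change of the 10 was -0.18, beside 0.00 over all tested genes. The groups did not overlap in 6 of the 10, nor in 63.1% of all tested genes. ETS2 changed most, with a larger absolute log2 fold change than 96.9% of the tested genes, and ETV6 least, with a larger one than 0.108% of them. With 2 libraries per group the smallest two-sided p of an exact permutation test is 0.333, so every call depends on the variance that edgeR shares between genes. RNA of whole cultures does not tell a change in each cell from a change in the number of cells that express a gene.

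**Figure D1:**
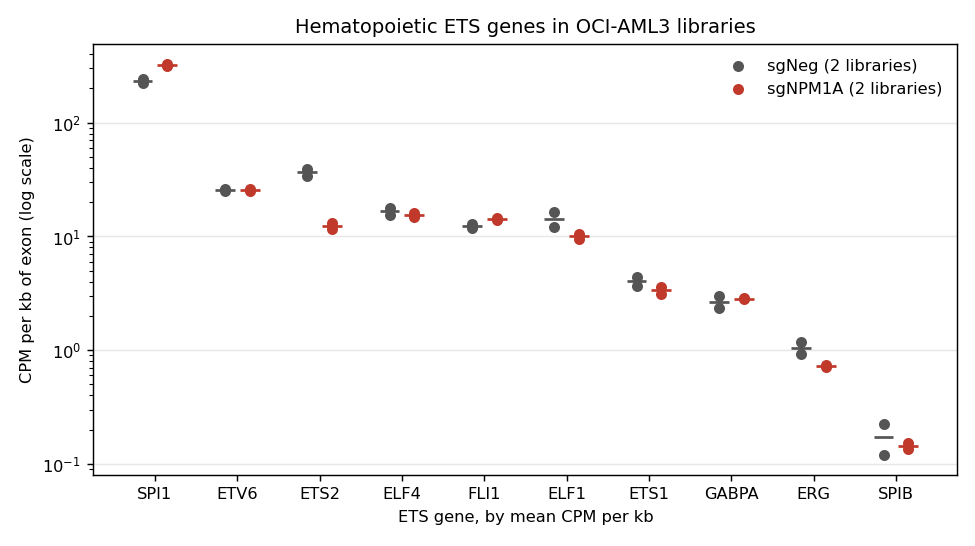
Level of each of the 10 ETS genes in CPM per kb of exon (log axis) in the 2 sgNeg libraries (grey) and the 2 sgNPM1A libraries (red), with genes ordered by their mean and a line at each group's mean. SPI1 lies far above the others at 222 to 331 CPM per kb, and ETS2 drops from 33.9 to 39.2 with sgNeg to 11.6 to 13.1 CPM per kb with sgNPM1A.

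Levels of different genes were compared per kb of exon, with lengths from the GENCODE annotation, since longer transcripts give more reads. SPI1 was the most abundant member in every library, with 222 and 243 CPM per kb with sgNeg and 331 and 315 CPM per kb with sgNPM1A. With sgNeg it was followed by ETS2 at 33.9 to 39.2, ETV6 at 25.4 to 26.2 and ELF4 at 15.6 to 17.7 CPM per kb. ELF1 at 12.1 to 16.4 CPM per kb overlapped both its neighbours in the order, ELF4 and FLI1, the latter at 11.9 to 12.8 CPM per kb. ETS1 at 3.65 to 4.40, GABPA at 2.37 to 2.99, ERG at 0.923 to 1.18 and SPIB at 0.119 to 0.225 CPM per kb formed the lower end, each separate from its neighbours. With sgNPM1A the order was SPI1, ETV6, ELF4, FLI1, ETS2, ELF1, ETS1, GABPA, ERG and SPIB, and no neighbours overlapped. ETS2 thus went from position 2 to position 5 in the order per kb of exon, while the 4 lowest genes kept their places. This order depends on the exon lengths used. In CPM not divided by length, ETS2 with sgNeg, at 195 and 169, overlapped ETV6, at 183 and 189.

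The promoters of ETS2 and ELF1, which were called lower, and of ETV6, which was not called, are shown as examples that carry the core that ETS proteins themselves bind. Each is the 250 bases before the outermost start that RefSeq lists (GRCh38.p14), 5′ to 3′ on the strand of the gene, with GGAA, or TTCC where the core is on the other strand, in capitals. The stretches are chr21:38804933-38805182 on the plus strand for ETS2, chr13:41061387-41061636 on the minus strand for ELF1 and chr12:11649424-11649673 on the plus strand for ETV6.
ETS2 promoter: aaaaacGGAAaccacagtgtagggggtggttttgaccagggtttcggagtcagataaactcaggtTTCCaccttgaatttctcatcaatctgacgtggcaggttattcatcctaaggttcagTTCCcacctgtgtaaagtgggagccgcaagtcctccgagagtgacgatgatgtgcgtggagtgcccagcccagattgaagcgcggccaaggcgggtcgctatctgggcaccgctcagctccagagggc
ELF1 promoter: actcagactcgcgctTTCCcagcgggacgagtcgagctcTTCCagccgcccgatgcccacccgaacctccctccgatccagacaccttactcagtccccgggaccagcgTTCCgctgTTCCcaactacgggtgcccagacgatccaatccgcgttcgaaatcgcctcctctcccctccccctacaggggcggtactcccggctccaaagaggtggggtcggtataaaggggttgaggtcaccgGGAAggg
ETV6 promoter: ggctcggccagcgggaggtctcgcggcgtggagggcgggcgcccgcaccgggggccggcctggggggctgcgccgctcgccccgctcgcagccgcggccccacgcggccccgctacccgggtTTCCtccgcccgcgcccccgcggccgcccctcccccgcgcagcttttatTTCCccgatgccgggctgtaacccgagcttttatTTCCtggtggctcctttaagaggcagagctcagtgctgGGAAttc
The ETS2 stretch holds 3 such cores, that of ELF1 5 and that of ETV6 4, where the median over 35116 RefSeq promoter windows of this length was 3 and 92.7% of them held at least 1. A second listed start of ETS2 has 6 in its 250 bases, and the other starts listed for ELF1 have 0 and 3. Cores were fewer in the outermost windows of ERG, called lower, with 1, GABPA with 1 and SPIB with 0, and that of ELF4 has 3. The longer site CCGGAAGT, searched on both strands and overlapping the core, occurred in 1 of 15 member windows, that of GABPA, and in 3.42% of all windows. The site GAGGAAGT, of the kind PU.1 prefers, occurred in 0 of the 15 and in 2.17% of all. Windows were found for 7 of the 10 members, and not for SPI1, FLI1 and ETS1. These matches describe the letters only.

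SPI1 (ENSG00000066336.11) is on chromosome 11 (GRCh38, 47354860 to 47378547) and encodes PU.1. It was counted at 11490 and 12817 reads with sgNeg and 18832 and 17865 reads with sgNPM1A, or 452 and 495 CPM against 676 and 643 CPM. The groups did not overlap, and the lowest sgNPM1A library lay above the highest sgNeg library by more than the distance between libraries of either group. From a mean of 473 ± 30.3 to 660 ± 22.8 CPM (SD, n = 2 libraries per group), SPI1 rose 1.39-fold, or by 0.48 on the log2 scale (standard error 0.072, 95% interval 0.32 to 0.64, adjusted p = 0.000552, edgeR). No 50-base word of its transcripts occurs in another annotated gene.

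SPIB, the closest relative of SPI1 and a factor of B cells and plasmacytoid dendritic cells, is on chromosome 19 (ENSG00000269404.6, 50418938 to 50431314). It had 13 and 25 counts with sgNeg and 16 and 18 counts with sgNPM1A, so the sgNPM1A libraries fell between the sgNeg libraries. Its log2 fold change of -0.27 had a 95% interval of -1.13 to 0.59 (adjusted p = 0.655, edgeR), a wide interval set by the few counts. Of its 50-base words 18.8% are shared with other genes, chiefly a read-through gene model, ENSG00000142539, so these few counts are also uncertain in origin.

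ETS2, a factor activated by phosphorylation through the RAS and ERK pathway, is on chromosome 21 (ENSG00000157557.11, 38805183 to 38824955). It had 4961 and 4364 counts with sgNeg and 1821 and 1606 counts with sgNPM1A, or 195 and 169 CPM against 65.3 and 57.8 CPM. Both sgNPM1A libraries of this gene, whose promoter stretch holds 3 GGAA cores, lay far below both sgNeg libraries. From 182 ± 18.9 to 61.6 ± 5.30 CPM (SD, n = 2 libraries per group), ETS2 fell 2.95-fold, or -1.56 on the log2 scale (standard error 0.089, 95% interval -1.76 to -1.37, adjusted p = 4.44e-07, edgeR). It was the only member whose change passed a fold threshold of 2. None of its 50-base words is shared, and an antisense RNA overlaps 2.25% of its exons.

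ETS1, the founding member of the family and a factor mainly of lymphoid cells, is on chromosome 11 (ENSG00000134954.14, 128458765 to 128587558). It had 31.5 and 26.1 CPM with sgNeg and 22.5 and 25.7 CPM with sgNPM1A, groups that were separate by less than the distance between libraries within either. Its log2 fold change was -0.25 (standard error 0.111, 95% interval -0.50 to -0.01, adjusted p = 0.119, edgeR), and it was not called. Without sgNeg replicate 2 it was called lower, at -0.38 on the log2 scale (adjusted p = 0.0340, edgeR). Its lowest adjusted p, 0.00257, came from an unplanned edgeR fit that blocked unlike-numbered libraries together (the crossed block), where it was not called either. The planned block of same-numbered libraries gave 0.164 (edgeR), and DESeq2 gave 0.266. The count of ETS1 relative to ETS2 within a library, which needs no scaling between libraries, was 0.161 and 0.155 with sgNeg and 0.344 and 0.445 with sgNPM1A.

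ERG and FLI1 encode closely related factors of stem cells, megakaryocytes and endothelium, and the 4 genes ETS1, FLI1, ERG and ETS2 lie in 2 neighbouring pairs. ETS1 and FLI1 are 97.6 kb apart on chromosome 11, and ERG and ETS2 are 143 kb apart on chromosome 21. ERG (ENSG00000157554.18, 38367261 to 38661783) had 226 and 181 counts with sgNeg and 149 and 155 counts with sgNPM1A, or 8.89 and 6.99 CPM against 5.35 and 5.58 CPM. The groups did not overlap, and the 2 sgNeg libraries differed from each other by more than sgNeg replicate 2 differed from the sgNPM1A libraries. ERG fell 1.45-fold, a log2 fold change of -0.54 (standard error 0.155, 95% interval -0.88 to -0.20, adjusted p = 0.0251, edgeR). The call was lost with DESeq2 (adjusted p = 0.111), without sgNeg replicate 1 (log2 fold change -0.36, adjusted p = 0.143, edgeR) and without sgNPM1A replicate 1 (-0.50, adjusted p = 0.0812, edgeR). The lowest adjusted p of ERG, 0.000371 (edgeR), came from the unplanned crossed block, and the planned replicate block gave 0.0180 (edgeR). Over all alternatives its log2 fold change stayed between -0.70 and -0.36.

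FLI1 (ENSG00000151702.16, chromosome 11, 128685132 to 128813267) had 103 and 95.6 CPM with sgNeg and 112 and 116 CPM with sgNPM1A. Both sgNPM1A libraries were higher, by little more than the distance between the sgNeg libraries. Its log2 fold change of 0.20 (standard error 0.070, 95% interval 0.05 to 0.36, adjusted p = 0.0571, edgeR) passed neither threshold. The number of FLI1 counts per ERG count went from 11.6 and 13.7 with sgNeg to 20.9 and 20.8 with sgNPM1A, so within a library the balance of this pair moved toward FLI1. ERG was called lower, as was its neighbour ETS2, and the ERG count per ETS2 count was 0.0456 and 0.0415 with sgNeg and 0.0818 and 0.0965 with sgNPM1A. FLI1 and its neighbour ETS1 had log2 fold changes of opposite sign, neither of them called, and 3.27 and 3.67 FLI1 counts per ETS1 count with sgNeg became 4.98 and 4.51.

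ELF1 and ELF4 belong to the ELF branch of the family, which regulates genes of T cells, natural killer cells and hematopoietic progenitors. ELF1 (ENSG00000120690.14, chromosome 13, 40931919 to 41061386) had 1853 and 1387 counts with sgNeg and 1165 and 1306 counts with sgNPM1A, or 72.9 and 53.6 CPM against 41.8 and 47.0 CPM. The groups of this gene, with 5 GGAA cores in its stretch, did not overlap, but sgNeg replicate 1 stood well above the other 3 libraries. ELF1 fell 1.42-fold, a log2 fold change of -0.51 (standard error 0.126, 95% interval -0.79 to -0.23, adjusted p = 0.0119, edgeR). Without sgNeg replicate 1 the log2 fold change was -0.27 (adjusted p = 0.0613, edgeR), and the call was lost. The lowest adjusted p of ELF1, 1.29e-14 (edgeR), came from the unplanned crossed block, and the planned replicate block gave 0.000280 (edgeR).

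ELF4 (ENSG00000102034.16, chromosome X, 130063955 to 130111858), known as a regulator of quiescence and of natural killer cells, had 92.8 and 81.5 CPM with sgNeg and 77.1 and 84.2 CPM with sgNPM1A. The groups overlapped, and the log2 fold change was -0.11 (95% interval -0.30 to 0.07, adjusted p = 0.362, edgeR). The number of ELF1 counts per ELF4 count was 0.785 and 0.657 with sgNeg and 0.542 and 0.559 with sgNPM1A.

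ETV6 (ENSG00000139083.10, chromosome 12, 11649674 to 11895377) encodes a transcriptional repressor that is needed for hematopoiesis in the bone marrow and is a frequent partner in leukemic gene fusions. With 4 GGAA cores in its promoter stretch, it had 183 and 189 CPM with sgNeg and 190 and 182 CPM with sgNPM1A, and the ranges lay over each other. The log2 fold change was 0.00, and its narrow 95% interval of -0.14 to 0.14 lay wholly within the fold threshold (adjusted p = 0.998, edgeR). With sgNeg its counts of 4661 and 4900 were near those of ETS2, so both genes were measured at a like depth.

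GABPA (ENSG00000154727.10, chromosome 21, 25734972 to 25772460) encodes the DNA-binding subunit of GABP, which controls many housekeeping and mitochondrial genes and works only with a GABPB subunit. It had 17.2 and 13.6 CPM with sgNeg and 16.1 and 16.6 CPM with sgNPM1A, with the sgNPM1A libraries between the sgNeg libraries. Its log2 fold change was 0.09 (95% interval -0.18 to 0.35, adjusted p = 0.660, edgeR). The partner subunit GABPB1 had 36.3 and 37.1 CPM against 45.5 and 44.3 CPM, a difference of 0.29 on the log2 scale (adjusted p = 0.0179, edgeR) that stayed under the fold threshold, and GABPB2 had a log2 fold change of 0.16. The GABPB1 count per GABPA count overlapped between the groups, at 2.11 and 2.73 with sgNeg and 2.83 and 2.67 with sgNPM1A. Of the 50-base words of GABPA 14.1% also occur in the pseudogene GABPAP, and the gene ATP5PF on the opposite strand covers 12.1% of its exons, so that, with the strand setting of the counting unknown, its counts are uncertain.

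**Figure D2:**
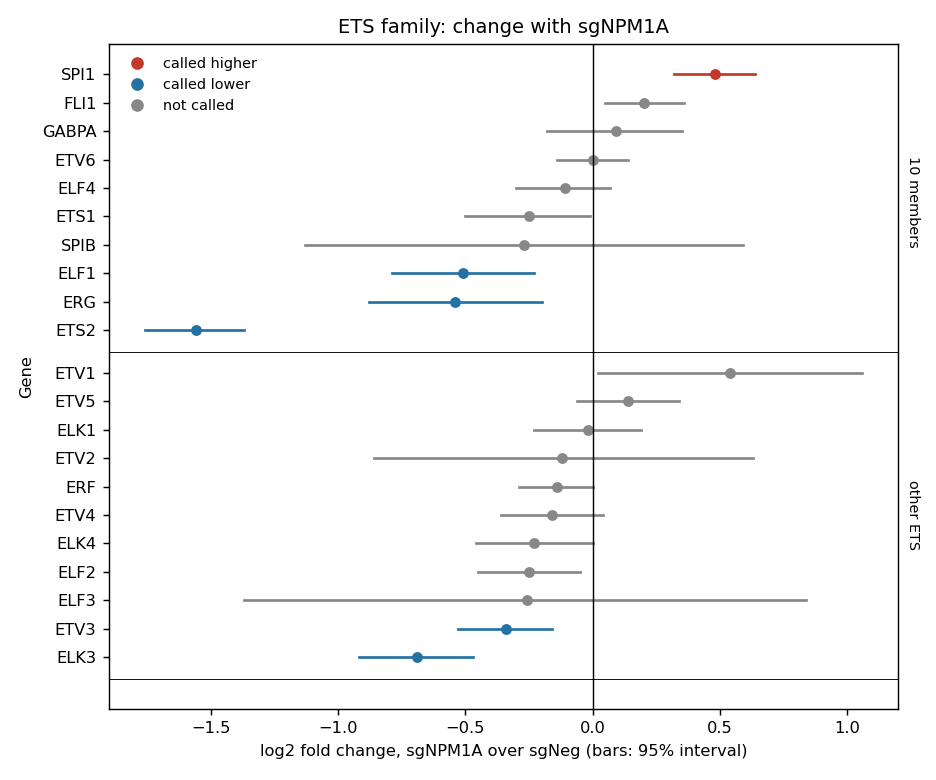
Log2 fold change of sgNPM1A over sgNeg (horizontal axis) for the 10 members and, under the line, the 11 other ETS genes that passed the filter, each with its 95% interval from edgeR (2 libraries per group), red for called higher, blue for called lower and grey for not called. ETS2 at -1.56 stands apart to the left, SPI1 at 0.48 is the only gene called higher, and the intervals of SPIB, ELF3 and ETV2 are wide, at 25 counts or fewer per library.

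The remaining 18 genes of the ETS family were used to see whether other members changed. Of these, 11 passed the filter, 2 were called lower and 0 higher by edgeR, a share of 18.2% beside the 20.8% of all tested genes, and DESeq2 likewise called 0 higher. At an unadjusted p under 0.05, edgeR had 1 of the 11 higher, ETV1, and 4 lower. By that rule 2915 of all 15718 tested genes were higher and 2981 lower. The median log2 fold change of the 11 was -0.16. Of the 11, 9 were below 0, as were 7854 of all 15718 tested genes. ELK3, a ternary complex factor that acts with serum response factor, had 43.3 and 37.4 CPM with sgNeg and 26.4 and 23.4 CPM with sgNPM1A, and its groups were well apart. It fell by 0.69 on the log2 scale (standard error 0.101, adjusted p = 0.000432, edgeR). ETV3, a repressor, had 39.9 and 36.5 CPM against 30.6 and 29.6 CPM and fell by 0.34 (standard error 0.085, adjusted p = 0.0123, edgeR). The call of ETV3 was lost without sgNeg replicate 1 (log2 fold change -0.28), without sgNPM1A replicate 1 (-0.37) and without sgNPM1A replicate 2 (-0.32). Its lowest adjusted p, 5.10e-06 (edgeR), came from the unplanned crossed block, and the planned replicate block gave 0.0309 (edgeR). Without sgNeg replicate 2, 4 of the 11 genes were called lower. The other 9 tested genes, ELF2, ELF3, ELK1, ELK4, ERF, ETV1, ETV2, ETV4 and ETV5, had log2 fold changes between -0.26 and 0.54, the highest for ETV1 with 36 and 54 counts against 76 and 66 counts (adjusted p = 0.122, edgeR). SPIC, the third member of the PU.1 branch, ELF5 and EHF had no count in any library, and FEV, ETV7, ETV3L and SPDEF had at most 7 counts in any library. Among genes of the PU.1 branch SPI1 was therefore the only gene with more than 25 counts in a library.

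**Figure D3:**
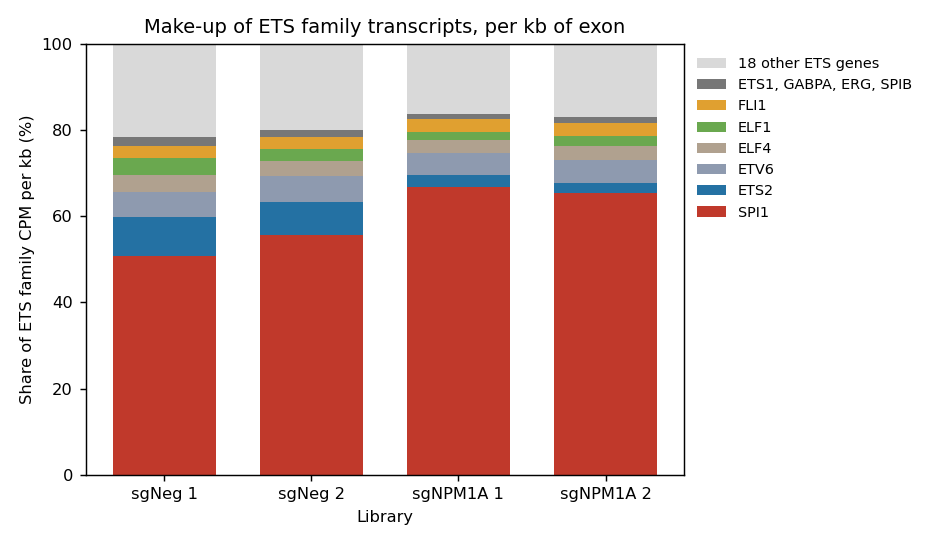
Share of each gene, in percent, of the summed CPM per kb of all 28 ETS genes in each of the 4 libraries (stacked bars from 0 to 100%). The SPI1 part is 50.8% and 55.6% with sgNeg and 66.8% and 65.4% with sgNPM1A, and the ETS2 part shrinks from 8.99% and 7.76% to 2.65% and 2.41%.

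Summed over all 28 ETS genes, the level was 436 CPM per kb in each sgNeg library and 496 and 482 CPM per kb in the sgNPM1A libraries. The 10 members made up 78.4% and 80.1% of it with sgNeg and 83.8% and 83.1% with sgNPM1A. SPI1 alone took 50.8% and 55.6% with sgNeg and 66.8% and 65.4% with sgNPM1A, the largest part of the 28 genes in every library. ETS2 took 8.99% and 7.76%, and then 2.65% and 2.41%. ETV6, whose level did not differ beyond its spread, took 5.81% and 6.00%, and then 5.31% and 5.22% of the larger sum. The number of SPI1 counts per ETS2 count, 2.32 and 2.94 with sgNeg, was 10.3 and 11.1 with sgNPM1A, and the number of SPI1 counts per ERG count, 50.8 and 70.8, was 126 and 115. Groups overlapped in neither of these ratios. The shares depend on the exon lengths used, which include every annotated exon of a gene, while their change between the groups depends less on them and the ratios within a library not at all.

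The RNA levels of 17 factors that bind or act with ETS proteins in blood cells were followed next, in the same libraries. RNA counts give neither the protein levels of these factors nor whether they occur in the same cells as the ETS factors. The list was drawn up with earlier results of these data known. Of the 17, 15 passed the filter, and 5 were called higher and 0 lower by edgeR, a share of 33.3% beside 20.8% of all tested genes, or 10.5% for genes called higher. DESeq2 called 0 lower as well. At an unadjusted p under 0.05 edgeR had 8 of the 15 higher and 1 lower, LDB1. By that rule 2915 of all 15718 tested genes were higher and 2981 lower. The median log2 fold change of the 15 was 0.29. Of the 15, 13 were above 0, as were 7864 of all 15718 tested genes. IRF8, the interferon regulatory factor that binds composite sites with PU.1, had 660 and 614 CPM with sgNeg and 1090 and 1124 CPM with sgNPM1A, groups far apart. It rose by 0.80 on the log2 scale (standard error 0.070, adjusted p = 1.08e-05, edgeR). IRF4, the other such partner, had at most 1 count in any library.

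JUN, an AP-1 subunit that PU.1 binds, had 13.2 and 13.5 CPM against 23.5 and 26.7 CPM and rose by 0.91 (adjusted p = 7.45e-05, edgeR). LYL1, a partner of ERG and FLI1 in stem cells, had 84.2 and 88.7 CPM against 145 and 152 CPM and rose by 0.78 (adjusted p = 1.15e-05, edgeR). GATA2, of the same group and known to oppose PU.1, had 45 and 56 counts against 122 and 121 counts and rose by 1.15 (adjusted p = 0.00104, edgeR). In each of these genes the sgNPM1A libraries lay clear of the sgNeg libraries. CEBPE, a factor of late granulocytes, had only 6 and 4 counts against 15 and 17 counts, a difference of 1.54 on the log2 scale (adjusted p = 0.0354, edgeR). Its call was lost with DESeq2 (adjusted p = 0.309) and with any of the 4 libraries left out (log2 fold change 1.27 to 1.87). Its lowest adjusted p, 0.0137 (edgeR), came from the unplanned crossed block, and the planned replicate block gave 0.0298 (edgeR).

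RUNX1, with 0.29 on the log2 scale (adjusted p = 0.0180, edgeR), MYB with 0.30 (adjusted p = 0.0118) and LDB1 with -0.28 (adjusted p = 0.0153) passed the adjusted p but not the fold threshold. CEBPA, which drives granulocyte fate together with PU.1, was measured at 280 and 270 CPM against 280 and 285 CPM, a log2 fold change of 0.04 with a 95% interval of -0.10 to 0.18, and unnamed antisense RNAs overlap up to 25.3% of its exons. LMO2, TAL1, CBFB and GFI1 had log2 fold changes between -0.08 and 0.14, and GATA1 had at most 7 counts in a library and was not tested.

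**Figure D4:**
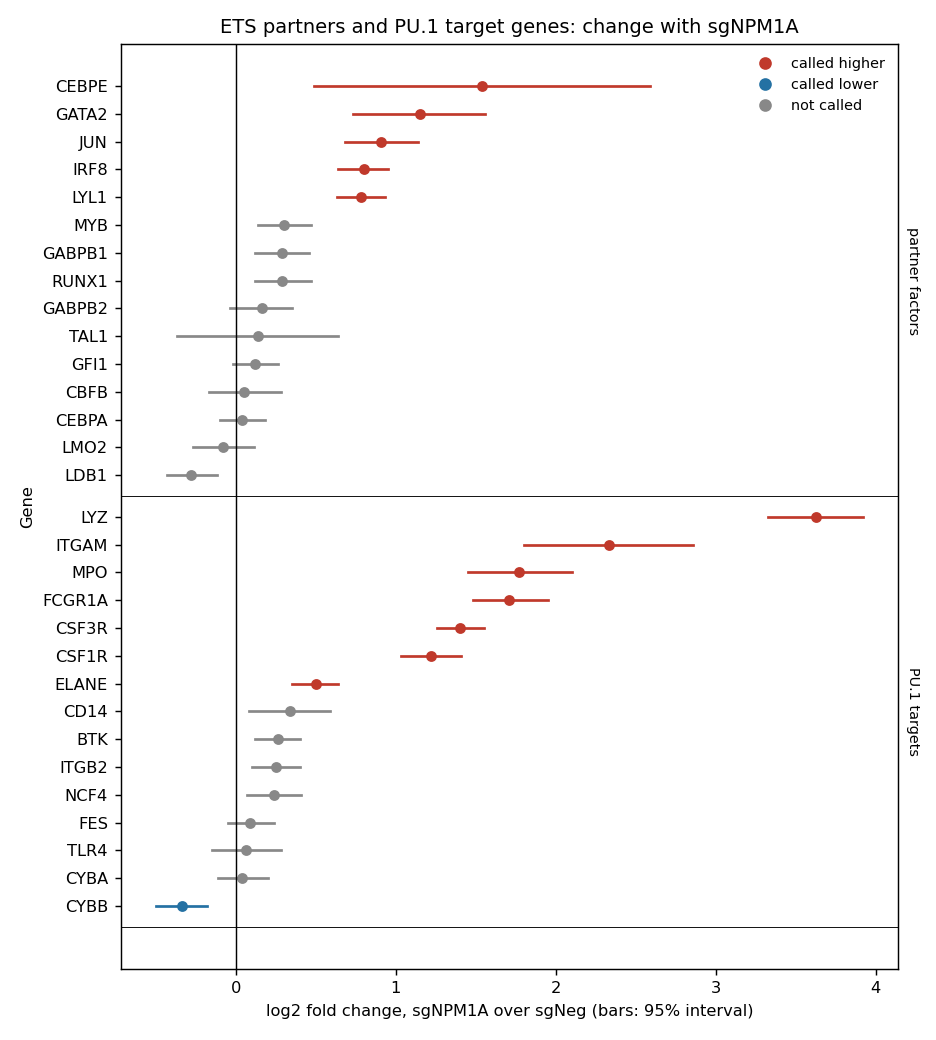
Log2 fold change of sgNPM1A over sgNeg (horizontal axis) with 95% intervals from edgeR (2 libraries per group) for the 15 tested partner factors and, under the line, the 15 tested PU.1 target genes, red for called higher, blue for called lower and grey for not called. LYZ at 3.63 leads the targets, CYBB at -0.34 is the only gene called lower, and the partner factors called higher lie between 0.78 and 1.54.

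Of the 16 genes reported here from a list of known direct PU.1 targets in myeloid cells, 15 passed the filter. Of these 7 were called higher and 1 lower, together 53.3% beside 20.8% of all tested genes. The median log2 fold change of the 15 was 0.34. Of the 15, 14 were above 0, as were 7864 of all 15718 tested genes. This list was drawn up from general knowledge with earlier results of these data known, and 3 of its genes, LYZ, MPO and CSF3R, are also among the myeloid markers, of which 5 of 7 were called higher. LYZ, encoding lysozyme, had 271 and 215 CPM against 2643 and 3367 CPM and rose 12.4-fold (adjusted p = 3.94e-08, edgeR), and an antisense RNA overlaps 34.7% of its exons. ITGAM, which encodes CD11b, had 19 and 21 counts against 98 and 121 counts, and its log2 fold change was 2.33 (adjusted p = 3.74e-05, edgeR). In both genes the difference between the groups was larger than the distance between libraries of a group.

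The growth factor receptor genes CSF3R, with 88.0 and 92.2 CPM against 234 and 243 CPM, and CSF1R, with 23.1 and 24.0 CPM against 52.0 and 57.6 CPM, rose by 1.40 and 1.22 on the log2 scale (adjusted p = 1.35e-07 and 2.35e-06, edgeR). The granule genes MPO, from 2.79 and 3.24 CPM to 10.2 and 10.5 CPM, and ELANE, from 816 and 835 CPM to 1162 and 1168 CPM, rose by 1.77 and 0.50 (adjusted p = 7.52e-06 and 0.000220, edgeR). The Fc receptor gene FCGR1A, which shares 34.4% of its 50-base words with FCGR1CP, rose by 1.71 (adjusted p = 8.68e-07, edgeR). These 5 log2 fold changes lay between 0.50 and 1.77, beside 0.48 for SPI1, and the difference from SPI1 was not tested.

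CYBB, which encodes the membrane subunit of the phagocyte oxidase and is a known target of PU.1 and IRF8, went the other way. It had 309 and 278 CPM with sgNeg and 223 and 240 CPM with sgNPM1A, groups that did not overlap, and fell by 0.34 on the log2 scale (standard error 0.074, adjusted p = 0.00581, edgeR). This call was lost without sgNeg replicate 1 (log2 fold change -0.26) and without sgNPM1A replicate 1 (-0.29). The lowest adjusted p of CYBB, 1.07e-11 (edgeR), came from the unplanned crossed block, and the planned replicate block gave 0.00787 (edgeR). ITGB2, BTK and NCF4, with log2 fold changes of 0.25, 0.26 and 0.24, passed the adjusted p but not the fold threshold. CD14 with 0.34 passed the fold threshold but not the adjusted p (0.0557, edgeR), and FES with 0.09, TLR4 with 0.06 and CYBA with 0.04 passed neither. CSF2RA, which lies in the pseudoautosomal region of both sex chromosomes, is listed at 0 in each of its 2 rows in every library and was not tested. Of its 50-base words 100% are shared, chiefly with its own second copy, so these 0 counts do not show that the gene is silent.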

How the data were processed

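RNA of 4 OCI-AML3 libraries, 2 with sgNeg and 2 with sgNPM1A, was sequenced as read pairs. The reads were mapped to hg38 by the authors, whose tools were STAR and Samtools, and the deposited values are raw counts of each Ensembl gene that were not normalized. The counting program, its strand setting and the annotation release are not given in the sources used here. Libraries were made with ERCC spike-ins, and 0 rows carry an ERCC name. All columns were matched to samples by title. Of 58037 genes, 55603 were given symbols by Ensembl identifier. Positions are those of RefSeq on GRCh38.p14, and exon lengths, overlaps and shared 50-base words come from GENCODE v44 lifted to GRCh37, used without its coordinates.

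Counts were filtered with filterByExpr (minimum count 10), normalized by TMM and tested with edgeR 4.0.16 in R 4.3.3, by the robust quasi-likelihood F test, two-sided, with adjustment over all 15718 tested genes. The standard error is the log2 fold change divided by the square root of F. On simulated data edgeR called 75 of 100 genes changed 1.5-fold and 96 of 100 changed 2-fold, with 14 false calls. DESeq2 called 53 and 82 of them, with 2 false calls. Smaller changes were not simulated. Alternatives were DESeq2 1.42.0, limma 3.58.1 (trend, quantile-normalized), other normalizations, filters and fold thresholds, the replicate block and leaving out each library, where a lone library is assumed to vary like the other group. The crossed block, which joins unlike-numbered libraries, was a further alternative, unplanned and added after the correlation between replicates was seen. The members and lists were chosen with earlier results of these data known. Named were all members and, of the other lists, each called gene, while further genes are named with values seen. 1 gene of the PU.1 target list is not reported here and was left out of its counts. The replicates of a group differed by more than sampling noise (chi-square per degree of freedom 9.20 for sgNeg and 4.19 for sgNPM1A over genes with at least 20 counts in both together).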

Additional observations from a re-analysis of the deposited data

How the results depend on the processing

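Of the 10 ETS genes, 4 were called. This count was 4 with limma-trend, with RLE, upper quartile or library size scaling, and with no filter. It was also 4 with at least 10 counts in every library, the replicate block and no fold threshold. It was 3 with DESeq2, which called 2332 of 29653 genes in all, and 1 with a fold of at least 2. With each library left out it lay between 2 (without sgNeg replicate 1) and 5. In the 13 refits that kept the fold threshold, the crossed block included, SPI1 and ETS2 were called each time, with log2 fold changes of 0.41 to 0.55 and of -1.66 to -1.45. Without sgNeg replicate 2 SPIB had 0.26 and GABPA -0.07, signs opposite to those in the full data. Over the libraries left out SPIB ran from -0.66 to 0.26 and GABPA from -0.07 to 0.26, and neither was called in any refit. With a fold of at least 2 the number of calls over all tested genes went from 3272 to 1000, of the other ETS factors from 2 to 0 and of the partner factors from 5 to 2, by construction. Without a fold threshold 9 of the 15 tested partner factors were called, 8 higher and 1 lower, beside 4087 of all 15718 tested genes. With each library left out the other ETS factors called were 1 to 4, the partner factors 4 to 6, the PU.1 targets 7 to 10 and all genes 2390 to 3145.

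Same-numbered libraries are linked by the number alone. Their deviations from the group means correlated at -0.130 over 15718 genes, and at -0.523 over 8856 genes with a mean above 10 CPM. With the replicate block 3241 genes were called (4 members, 2 other ETS factors, 5 partner factors and 9 PU.1 targets). With the crossed block, added after the correlation was seen, 3873 genes were called, 4 of them members and 3 other ETS factors, 1 of which was higher. None of the 19 calls named was lost with the planned replicate block. None was lost with the crossed block either, but that block was chosen from the correlation in these same data. Keeping the calls under it is therefore no check of them.

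The depth limits SPIB and CEBPE, with at most 25 counts in a library.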
